A study of Homo sapiens with 6 samples.

Results

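Epithelial junction and epithelial identity genes were followed in HS578T cells carrying an EP300 expression vector and in cells carrying the empty vector. HS578T is an established human line from a breast carcinoma and looks mesenchymal in culture. EP300 is the gene of p300, a co-activator of transcription that acetylates lysines of histones and other proteins. The 39 genes were chosen by name as parts of epithelial junctions or as regulators and surface markers of epithelia. Earlier results of these data were known when they were chosen. Each gene was read from the probe set with its platform-annotation symbol. A named probe set was found for 37 of them, among 17687 genes and 21448 probe sets on the array. F11R and ESRP2 were not analysed here. All 37 genes had 1 named probe set each.

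Both groups were HS578T cells stably transfected with pcDNA 3, either empty (control, 3 cultures) or carrying EP300 cDNA (3 cultures). In both, clones resistant to G418 had been pooled, and the cultures were grown in low-glucose DMEM with fetal calf serum, glutamine, insulin and G418. RNA of each culture was hybridised to its own Affymetrix whole-transcript array, and the deposited values were read as log2 values, a scale inferred from the numbers themselves. The design text calls the cultures independent and does not say whether those of a condition came from 1 transfected pool, so that p-values measure the spread between cultures. EP300 itself was not analysed here, because no named probe set carries that symbol.

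Tight junctions seal the space between neighbouring epithelial cells. Claudins, occludin and the MARVEL-domain proteins span the membrane there, and the zonula occludens proteins and cingulin tie them to actin. Desmosomes are spot junctions in which the cadherins desmoglein and desmocollin bind plakoglobin (JUP) and plakophilins, and desmoplakin (DSP) links these to keratin filaments. In carcinoma cells that take on mesenchymal features, the repressors of the ZEB and SNAI families bind E-box sequences near such genes, while GRHL, OVOL, ESRP and ELF3 factors maintain the epithelial programme.

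The E-box CACCTG, which reads CAGGTG on the other strand, was looked for in the RefSeq promoters (GRCh38.p14, 250 bases before to 50 after a transcript start). Promoters were listed for 24 of the 37 measured genes. At least 1 match lay in a promoter of 13 of these 24 (54.2%), against 24.1% of 27305 genes with a listed promoter. Counted by promoter, the share was 15 of 35 (42.9%) against 20.6% of 35116. The listed MUC1 promoters overlap and hold the same matches, so by promoter these are counted more than once. Base composition was not matched in either comparison. The Grainyhead-like motif AACCGGTT was found in 0 of the 35 and in 0.134% of all promoters. With so low a share over all promoters, finding 0 among 35 tells little about these genes, and sequence outside the listed promoters was not searched. A match is a run of letters and not a measured binding site.

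The stretches printed here belong to the 5 genes with an unadjusted p below 0.05 between the groups and to CRB3, which with CLDN7 held the most matches in 1 promoter among the 24 genes (5 each). Each runs 5′ to 3′ in the direction of transcription, with the E-box letters in capitals. The DSG2 stretch is chr18:31497933-31498078 (plus strand), from 244 to 99 bases before the transcript start. The DSP stretch is chr6:7541481-7541603 (plus strand), from 190 to 68 bases before it. The JUP stretch is chr17:41786008-41786036 (minus strand), before the downstream of 2 listed starts, and the TJP1 stretch is chr15:29969120-29969149 (minus strand), before the most upstream of 4. The MUC1 stretch is chr1:155192973-155193009 and the CRB3 stretch chr19:6464031-6464228, on the minus and plus strand.
DSG2: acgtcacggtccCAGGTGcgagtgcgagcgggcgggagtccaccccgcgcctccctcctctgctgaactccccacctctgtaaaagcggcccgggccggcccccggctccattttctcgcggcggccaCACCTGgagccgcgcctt
DSP: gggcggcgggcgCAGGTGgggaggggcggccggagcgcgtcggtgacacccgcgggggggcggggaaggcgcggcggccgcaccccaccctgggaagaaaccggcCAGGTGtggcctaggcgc
JUP: tggcccCACCTGccgagCAGGTGagcgca
TJP1: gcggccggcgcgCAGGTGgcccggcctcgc
MUC1: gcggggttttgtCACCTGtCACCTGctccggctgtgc
CRB3: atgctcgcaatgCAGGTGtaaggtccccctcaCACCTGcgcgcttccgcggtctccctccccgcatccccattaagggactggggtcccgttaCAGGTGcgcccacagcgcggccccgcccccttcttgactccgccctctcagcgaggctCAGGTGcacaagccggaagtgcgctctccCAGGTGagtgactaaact

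The arrays were alike as a whole. Their medians lay between 4.46 and 4.50, and their pairwise correlations ran from 0.978 to 0.981 within groups and from 0.977 to 0.981 between groups. The table holds no detection calls, so the 348 olfactory receptor probe sets, for genes that these cells are not known to use, served as a guide to the level of unused genes. Their 95th percentile was 4.33 in control and 4.11 in EP300 cultures. Probes differ in affinity, so this is a guide and not a detection limit. Markers of the line's mesenchymal state read far above it, with 13 of 14 above the guide in both groups and VIM, the intermediate filament gene vimentin, at 18.60 on every array. The VIM value was identical on all 6 arrays, as was the highest value of each array (19.93). VIM therefore gives no measure of the spread between cultures. The adherens junction gene CDH1 (E-cadherin), a defining epithelial marker, read 2.54 ± 0.48 in control and 3.25 ± 0.67 in EP300 cultures on the log2 scale (means with SD over n = 3 cultures), within the olfactory receptor range in both. Other epithelial markers did exceed the guide. Of 11 breast luminal markers, CDH1 included, 5 were above it in both groups. The keratin genes KRT18 (11.13 in control, 10.02 in EP300 cultures) and KRT8 (6.96 and 7.33) read highest of these. Leukocyte markers were above the guide in both groups for 3 of 7 genes and endothelial markers for 2 of 8. PTPRC, PECAM1 and CDH5, which define those cell types, were within it in both groups.

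Most of the epithelial genes read low. Of the 37 genes, 20 lay within the olfactory receptor range in both groups, 5 exceeded it in 1 group (DSC3, JUP, PKP2 and GRHL2 in EP300 cultures, PRSS8 in control cultures), and 12 exceeded it in both. The guide itself was lower in EP300 cultures, and apart from JUP the genes that exceeded it in 1 group lay near it in both. DSC3 averaged 4.32 in control and 4.38 in EP300 cultures, PKP2 4.32 and 4.39, GRHL2 4.04 and 4.20, and PRSS8 4.37 and 4.11. The 12 comprised 7 tight junction genes (TJP1, CLDN1, MARVELD3, CLDN7, CLDN12, OCLN and CLDN3), 3 desmosome genes (DSP, PKP4 and DSG2) and 2 surface or polarity genes (CRB3 and MUC1). No regulator exceeded the guide in both groups. The median level over the 37 genes was 3.77, against 4.57 over all genes. Of all genes, 53.7% read above the guide in both groups. The 12 genes above the 95th percentile were mainly junction components, as were the 37 genes (13 tight junction and 11 desmosome genes). Within the range in both groups lay 6 of the tight junction and 5 of the desmosome genes. EPCAM, RAB25, ESRP1 and the OVOL genes were also below the 95th percentile. Against the 99th percentile of the olfactory receptors (4.83 in control and 4.74 in EP300 cultures), a guide added after the data were seen, 8 of the 12 remained above in both groups. CLDN3, CLDN12, OCLN and MUC1 did not.

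**Figure D1:**
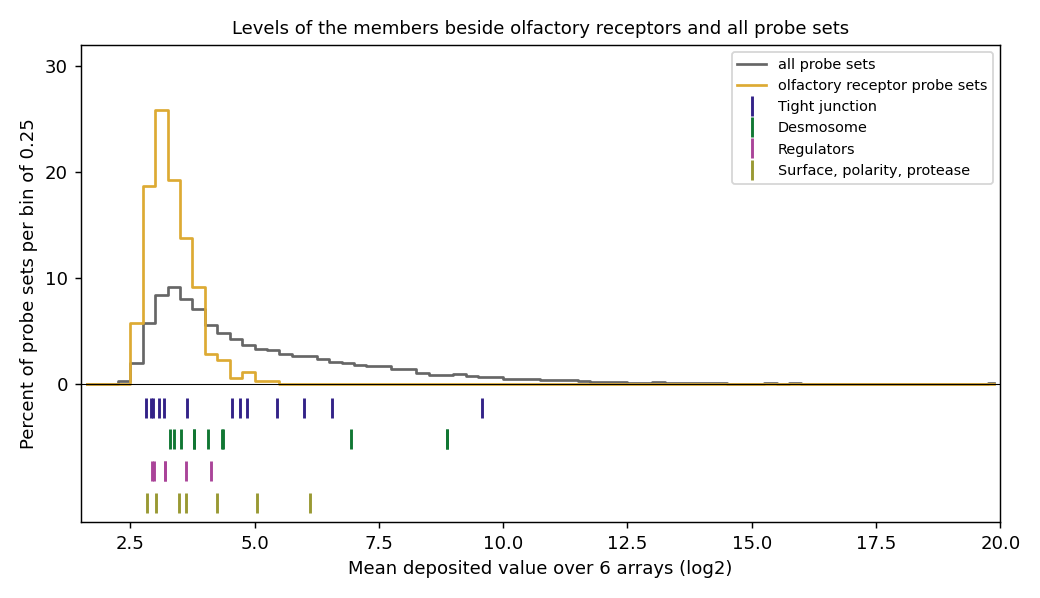
Share of probe sets (percent per bin of 0.25) against the mean deposited value over 6 arrays (log2), for all probe sets (grey line) and 348 olfactory receptor probe sets (yellow line), with a tick below the axis for each of the 37 genes by role. Most ticks lie under the olfactory receptor peak, and TJP1, DSP and PKP4 lie furthest to the right.

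Between EP300 and control cultures, limma called 0 of the 37 genes at a p adjusted over all probe sets of 0.05, and their adjusted p ran from 0.735 to 0.997. The background is 0% of 21448 probe sets called, with a lowest adjusted p of 0.222. With a variance trend and robust estimation limma called 0 of the 37 genes and 0.0186% of the probe sets. At an unadjusted p below 0.05, 3 genes were higher in EP300 cultures (DSG2, JUP and TJP1) and 2 were lower (DSP and MUC1). That is 5 of 37 (13.5%), beside 6.52% of all probe sets (3.45% higher and 3.07% lower). Of the 5, all but JUP exceeded the olfactory receptor range in both groups, where 7.06% of probe sets had such a p. The groups did not overlap for 6 genes (16.2%), beside 12.2% of all probe sets. These were DSG2, JUP, TJP1 and CLDN7 (higher, beside 6.3%) and MUC1 and TJP3 (lower, beside 5.91%). As a whole 18 genes were higher and 19 lower, where 50.2% of all probe sets were higher, with a median log2 difference of -0.03 against 0.00098 over all probe sets. In RNA of whole cultures, a change in the share of cells that use a gene and a change in RNA per cell cannot be told apart.

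**Figure D2:**
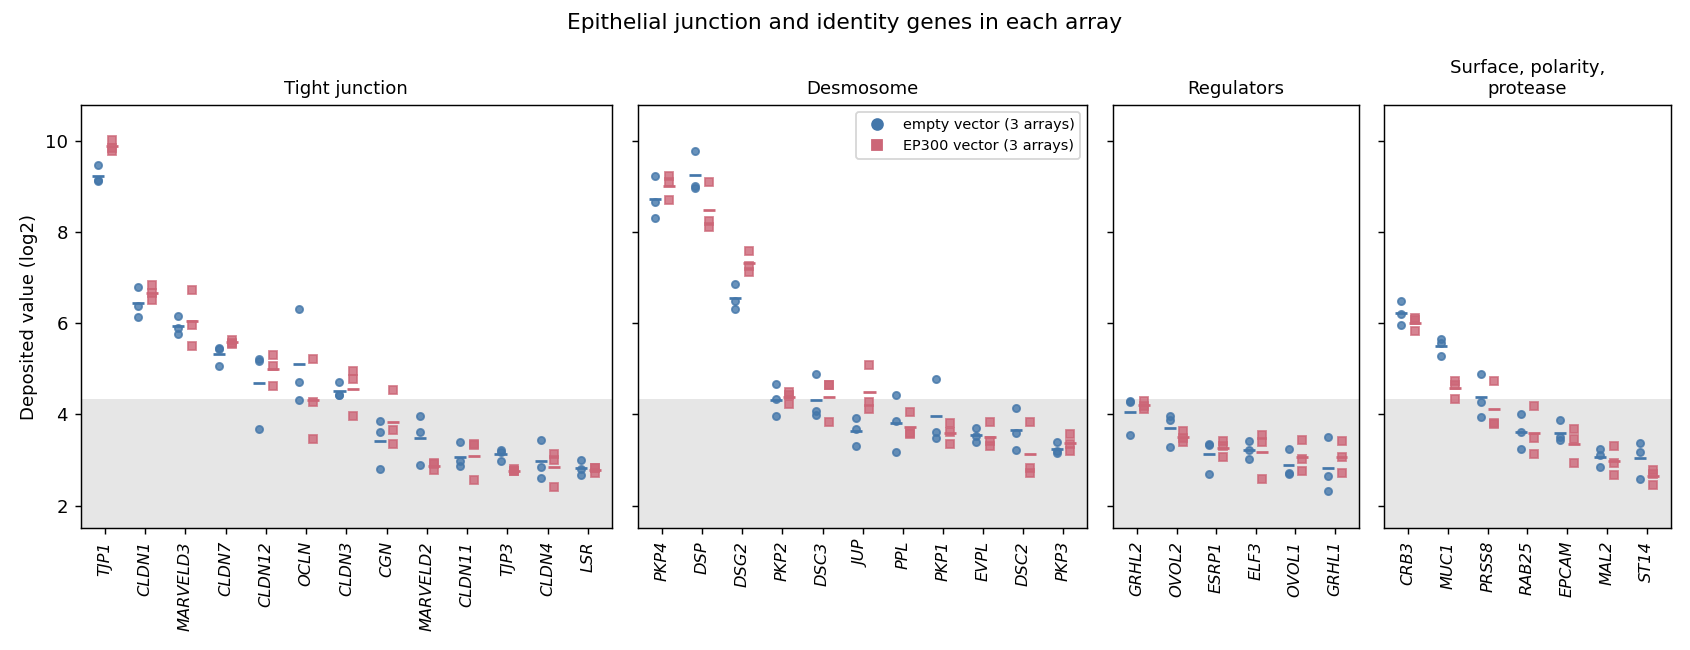
Deposited value (log2) of each gene in each array, with control arrays as blue circles, EP300 arrays as red squares and a short line at each group's mean (n = 3). The grey band reaches up to 4.33, the 95th percentile of olfactory receptor probe sets in control cultures. DSG2 and TJP1 squares lie above their circles, MUC1 squares lie below them, and most other genes overlap.

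Among tight junction genes, TJP1 read highest. It encodes ZO-1, the scaffold that joins claudins and occludin to the actin cytoskeleton. Its values were 9.48, 9.12 and 9.14 in control cultures 1 to 3 and 9.85, 10.02 and 9.79 in EP300 cultures 1 to 3. Each EP300 culture exceeded each control culture. The difference was 0.64 ± 0.21 SE on the log2 scale (95% interval 0.17 to 1.12), or 1.56-fold higher, with a limma p of 0.0133 and an adjusted p of 0.740. Without 1 array it ran from 0.58 to 0.76. A two-sided exact permutation test gave 0.1, the lowest value possible with 3 against 3, and gave the same for each other gene whose groups do not overlap.

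TJP3 and MARVELD2 read lower in EP300 cultures, at levels within the olfactory receptor range in both groups, and neither passed the test. TJP3, encoding the epithelial paralog ZO-3, read 2.98, 3.17 and 3.22 in control and 2.79, 2.75 and 2.76 in EP300 cultures. The groups did not overlap, and the difference was -0.36 ± 0.20 SE (limma adjusted p = 0.810). MARVELD2, encoding tricellulin, which seals corners where 3 cells meet, read 3.61, 2.90 and 3.96 in control and 2.93, 2.78 and 2.90 in EP300 cultures. Control culture 2 read like the EP300 cultures, and the other control cultures read higher. The difference was -0.61 ± 0.28 SE (limma p = 0.0545, adjusted p = 0.770, exact permutation p = 0.3). It was -0.38 without control replicate 3 and -0.91 without control replicate 2, where the unadjusted p fell below 0.05, as it did with a variance trend and robust estimation and with the replicate block.

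The remaining tight junction genes had 95% intervals that include 0. CLDN7, a claudin of breast epithelium, read 5.43, 5.45 and 5.07 in control and 5.58, 5.55 and 5.63 in EP300 cultures. The groups did not overlap, but the difference of 0.27 ± 0.21 SE had a limma adjusted p of 0.873. OCLN, encoding occludin, had the widest spread of all 37 genes, from 4.31 to 6.31 in control and from 3.47 to 5.22 in EP300 cultures, and its difference of -0.79 had a 95% interval from -2.01 to 0.43. CLDN1 averaged 6.44 in control and 6.67 in EP300 cultures. MARVELD3 averaged 5.94 and 6.06, CLDN3 4.52 and 4.57, and CLDN12 4.69 and 4.99. CLDN4, CLDN11, LSR (a tricellular junction receptor) and CGN (cingulin) lay within the olfactory receptor range in both groups. Over the 13 tight junction genes 8 were higher and 5 lower, with a median log2 difference of 0.05.

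Of the 11 desmosome genes, 3 (27.3%) had an unadjusted p below 0.05, beside 6.52% of all probe sets, and these did not share a direction. DSG2 encodes desmoglein 2, the desmosomal cadherin of simple epithelia. It read 6.86, 6.32 and 6.50 in control and 7.26, 7.12 and 7.58 in EP300 cultures, so that every EP300 culture was above every control culture. The difference was 0.76 ± 0.24 SE (95% interval 0.23 to 1.29), or 1.7-fold higher (limma p = 0.00935, adjusted p = 0.735, exact permutation p = 0.1). It ran from 0.63 to 0.91 without 1 array.

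JUP encodes plakoglobin, which binds desmosomal and classical cadherins. It read 3.68, 3.30 and 3.92 in control cultures, within the olfactory receptor range, and 4.26, 4.12 and 5.09 in EP300 cultures. EP300 culture 3 was the highest, and the groups did not overlap. The difference was 0.86 ± 0.30 SE (95% interval 0.19 to 1.53, limma p = 0.0168, adjusted p = 0.741, exact permutation p = 0.1). Without EP300 replicate 3 it was 0.56 and without EP300 replicate 2 it was 1.05. No fold is given, since the control level lies where unused genes read.

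DSP encodes desmoplakin, the plaque protein that anchors keratin filaments. It read 8.98, 9.01 and 9.79 in control and 8.25, 9.10 and 8.11 in EP300 cultures. EP300 culture 2 lay within the control range and the other EP300 cultures lay below it. The difference was -0.77 ± 0.33 SE (95% interval -1.51 to -0.04, limma p = 0.0401, adjusted p = 0.758, exact permutation p = 0.3). It was -0.51 without control replicate 3 and -1.08 without EP300 replicate 2, so that single cultures set its size.

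PKP4, encoding a plakophilin-like armadillo protein found at several junction types, overlapped between the groups. It read 9.24, 8.67 and 8.31 in control and 9.11, 8.70 and 9.23 in EP300 cultures, with a difference of 0.28 ± 0.28 SE (95% interval -0.36 to 0.91). Without control replicate 3 it was 0.06, and without control replicate 1 it was 0.53. The desmosomal plakophilin genes PKP1, PKP2 and PKP3 differed by -0.36, 0.06 and 0.13. DSC2 and DSC3, the desmocollins, differed by -0.53 ± 0.35 SE and 0.06 ± 0.32. PPL and EVPL, the plakins of the cornified envelope, differed by -0.08 and -0.03. Of these genes, PKP1, PKP3, DSC2, PPL and EVPL lay within the olfactory receptor range in both groups. Over the 11 desmosome genes 6 were higher and 5 lower, with a median log2 difference of 0.06.

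**Figure D3:**
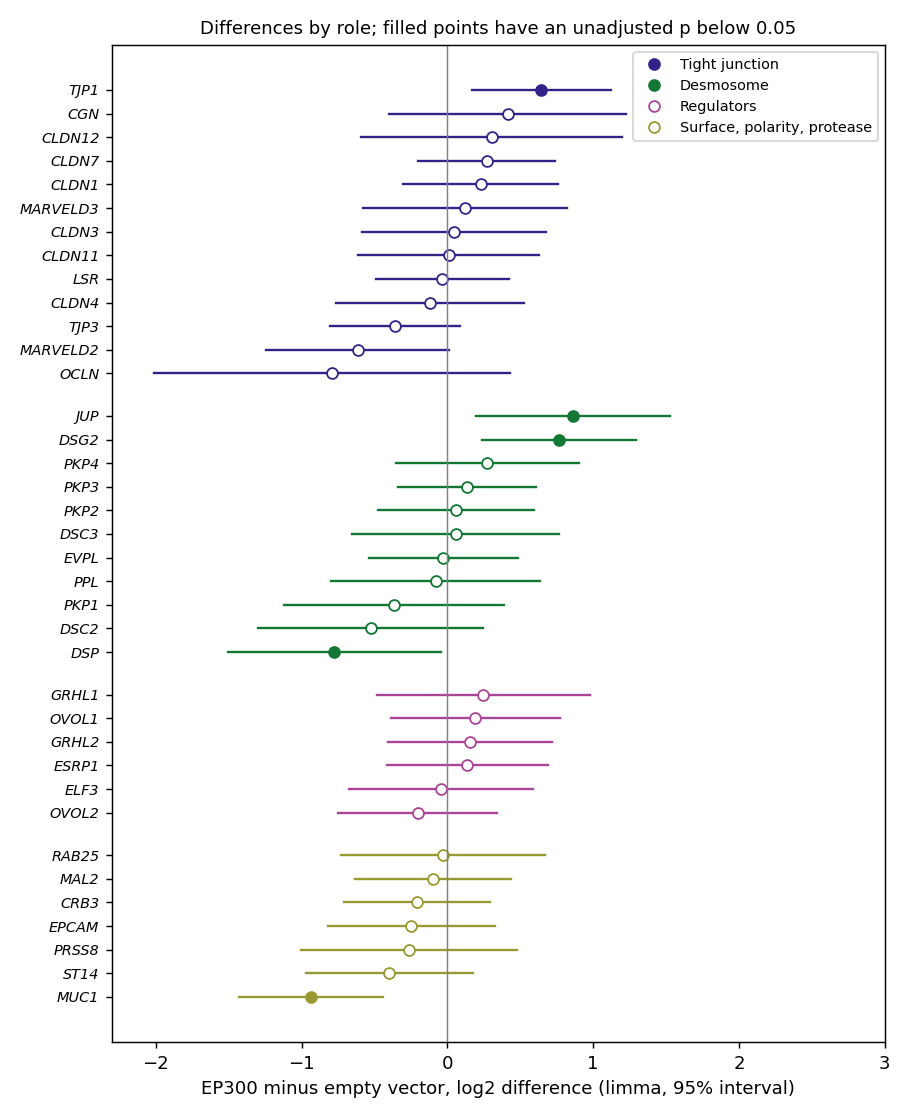
Log2 difference (EP300 minus empty vector) of each of the 37 genes with limma's 95% interval, grouped by role. Filled points have an unadjusted p below 0.05, namely TJP1, JUP, DSG2, DSP and MUC1. The filled desmosome points lie on both sides of 0, from -0.77 for DSP to 0.86 for JUP, and every point of the surface, polarity and protease genes lies below 0.

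The epithelial regulators gave no difference beyond their error. GRHL2, the Grainyhead-like factor that sustains junction genes, had the highest reading of the 6. It read 4.27, 3.56 and 4.31 in control and 4.12, 4.19 and 4.29 in EP300 cultures. Control culture 2 was low and the others were alike, and the difference was 0.16 ± 0.25 SE (95% interval -0.41 to 0.72, limma adjusted p = 0.937). It was -0.09 without control replicate 2 and 0.29 without control replicate 3. Its paralog GRHL1 read 2.64, 2.32 and 3.51 in control and 3.41, 3.07 and 2.72 in EP300 cultures, with wide overlap (0.25 ± 0.33 SE). That difference was -0.00493 without control replicate 2 and 0.59 without control replicate 3.

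OVOL2, a zinc finger repressor of ZEB1, read 3.88, 3.98 and 3.29 in control and 3.39, 3.64 and 3.49 in EP300 cultures, with a difference of -0.20 ± 0.24 SE. It was -0.07 without control replicate 2 and -0.42 without control replicate 3. OVOL1 read 2.70, 3.24 and 2.71 in control and 2.75, 3.03 and 3.43 in EP300 cultures (0.19 ± 0.26 SE), and the difference was 0.01 without EP300 replicate 3 and 0.37 without control replicate 2. Both overlapped between the groups. ESRP1, an epithelial splicing factor, averaged 3.13 and 3.27, and the ETS factor gene ELF3 averaged 3.22 and 3.18. At an unadjusted p below 0.05, 0 of the 6 regulators passed, and their limma adjusted p ran from 0.915 to 0.987. The 95% intervals reach beyond 0.5 on the log2 scale for every regulator, so differences of that size would not have been resolved here.

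The surface, polarity and protease genes were all lower on average in EP300 cultures, 7 of 7, beside 49.8% of all probe sets, with a median log2 difference of -0.25. Of the 20 genes of any role within the olfactory receptor range in both groups, 14 were lower and 6 higher. Of the 7, 4 were among these 20, and only 2 exceeded the range in both groups. MUC1 encodes a membrane mucin of glandular epithelium and is the 1 gene of this group with an unadjusted p below 0.05. It read 5.28, 5.67 and 5.58 in control and 4.74, 4.64 and 4.34 in EP300 cultures. Each EP300 culture was below each control culture. The difference was -0.93 ± 0.22 SE (95% interval -1.43 to -0.44), with the smallest limma p of the 37 genes (0.00191, adjusted p = 0.735). It stayed between -1.05 and -0.82 when any 1 array was left out. No fold is given, since the EP300 level lies under the 99th percentile of the olfactory receptors.

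CRB3, encoding the apical polarity protein Crumbs 3, read 6.48, 5.96 and 6.21 in control and 6.08, 5.83 and 6.12 in EP300 cultures. The groups overlapped, and the difference was -0.21 ± 0.22 SE (limma adjusted p = 0.908). It was -0.07 without control replicate 1 and -0.34 without control replicate 2. ST14, encoding the membrane protease matriptase, read 3.37, 2.57 and 3.17 in control and 2.70, 2.78 and 2.44 in EP300 cultures (-0.40 ± 0.26 SE). Its difference was -0.23 without control replicate 1 and -0.63 without control replicate 2, where the unadjusted p fell below 0.05. EPCAM, the epithelial adhesion molecule, read 3.43, 3.50 and 3.87 in control and 3.46, 2.93 and 3.67 in EP300 cultures (-0.25 ± 0.26 SE). Its difference was -0.04 without EP300 replicate 2 and -0.41 without EP300 replicate 3, so that 1 culture sets most of it. ST14, EPCAM, MAL2 and RAB25 lay within the olfactory receptor range in both groups, and PRSS8 exceeded it in control cultures only. PRSS8 (the protease prostasin), MAL2 (a transcytosis protein) and RAB25 (an apical recycling GTPase) differed by -0.26, -0.10 and -0.03. The mean of the 7 genes was 4.18 to 4.26 in control and 3.82 to 3.93 in EP300 cultures, and without MUC1, a step chosen after its values were seen, it was 3.93 to 4.09 and 3.68 to 3.86. No test was made over the 7 genes.

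**Figure D4:**
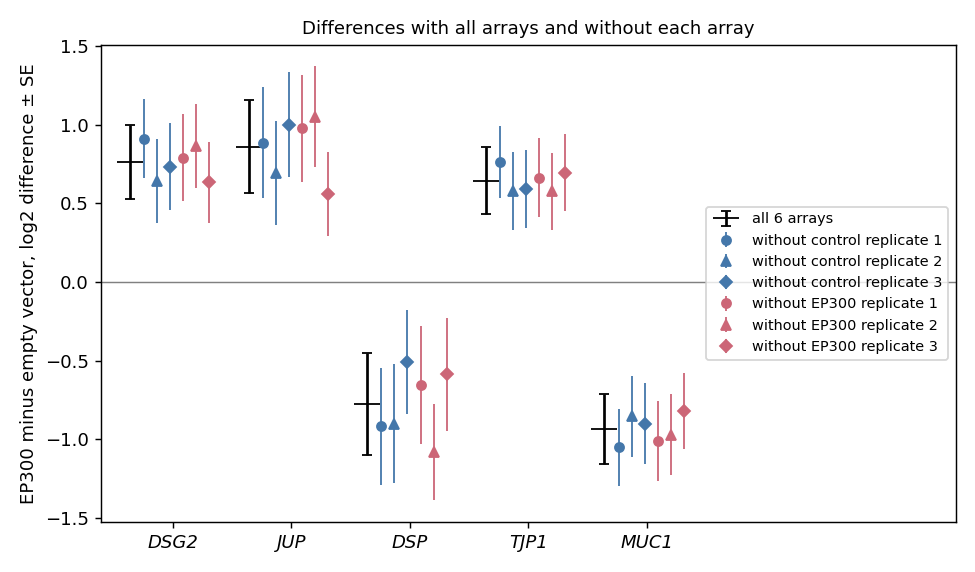
Log2 difference (EP300 minus empty vector) with its limma SE for the 5 genes with an unadjusted p below 0.05, with all 6 arrays (black) and without each control array (blue) or EP300 array (red). TJP1, DSG2 and MUC1 keep a similar size, JUP drops to 0.56 without EP300 replicate 3 and DSP to -0.51 without control replicate 3.

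The E-box was found on both sides of these differences. All 5 genes with an unadjusted p below 0.05 were among the 13 with a match, 3 higher (DSG2, JUP and TJP1) and 2 lower (DSP and MUC1). Over all probe sets 6.52% had such a p, and 50.2% were higher by any amount. These shares were not taken separately for genes with and without a match over the whole array. A link between the match and the differences was not tested. The 13 genes with a match were higher in 5 cases and lower in 8, with a median log2 difference of -0.04. The 11 genes with a listed promoter and no match (CLDN1, CLDN4, CLDN11, CLDN12, CGN, MARVELD2, LSR, DSC3, PKP1, PKP4 and GRHL1) were higher in 7 cases and lower in 4, with a median of 0.06. CRB3, with 5 matches printed above, differed by -0.21 ± 0.22 SE. These counts describe the genes with a listed promoter only, and the genes with several listed starts had more sequence to match.

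Other junction genes, taken from lists of related components, were read in the same fit. Of 31 further tight junction and polarity genes, 0 were called by limma at an adjusted p of 0.05. At an unadjusted p below 0.05, 1 was higher and 2 were lower (9.68%, beside 6.52% of all probe sets), and the median log2 difference was -0.02. JAM3, a junctional adhesion molecule, read 6.26, 5.81 and 5.75 in control and 4.71, 5.39 and 5.005 in EP300 cultures (-0.91 ± 0.25 SE, limma adjusted p = 0.735), with no overlap between the groups. CGNL1, encoding paracingulin, read 3.32, 4.76 and 3.88 in control and 4.86, 5.06 and 4.54 in EP300 cultures (0.83 ± 0.35 SE), with 0.49 without control replicate 1 and 1.21 without control replicate 2.

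Of 17 further desmosome, adherens junction and hemidesmosome genes, 1 was higher and 0 were lower at an unadjusted p below 0.05 (5.88%, beside 6.52% of all probe sets), with a median log2 difference of 0.03. AFDN, encoding the nectin-binding scaffold afadin, read 3.13, 3.53 and 3.20 in control and 4.10, 3.84 and 3.996 in EP300 cultures. The groups did not overlap (0.69 ± 0.22 SE, limma adjusted p = 0.735), at levels within the olfactory receptor range. PERP, a tetraspan desmosomal protein, read 9.54, 9.49 and 9.43 in control and 9.19, 9.08 and 8.91 in EP300 cultures (-0.43 ± 0.20 SE), also without overlap.

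Repressors of the epithelial programme read above the guide in both groups for 8 of 11 genes, beside 53.7% of all genes. Of the 8, TWIST1 and TWIST2 lay under the 99th percentile of the olfactory receptors in both groups. SNAI2 (Slug) read 16.80, 16.30 and 16.50 in control and 17.01, 17.28 and 17.44 in EP300 cultures. The groups did not overlap, and the difference was 0.71 ± 0.23 SE (limma adjusted p = 0.738). GSC differed by 0.38 ± 0.26 SE at levels within the olfactory receptor range, with 0.19 without EP300 replicate 3 and 0.55 without EP300 replicate 1. Of the 11, 1 was higher and 0 were lower at an unadjusted p below 0.05 (9.09%, beside 6.52% of all probe sets), and the median log2 difference was -0.00495. Of 14 mesenchymal markers, 5 were lower and 0 higher at an unadjusted p below 0.05 (35.7%, beside 6.52% of all probe sets, 3.07% lower and 3.45% higher). The groups did not overlap for 8 that were lower and for 2 that were higher, PDGFRB and AXL (71.4%, beside 12.2% of all probe sets). Among the 8, SPARC read the highest value of the arrays (19.93) in control cultures 2 and 3. None of the 14 was called at an adjusted p of 0.05, and their mean level was 12.95 to 12.97 in control and 12.56 to 12.77 in EP300 cultures. Their part in the differences of the epithelial genes was not tested.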

How the data were processed

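The authors' deposited table holds 1 value per probe set and array, read here as a log2 value. Per the submitters' processing notes it was made with Partek 6.6. How background, normalization and summarisation were handled, and the genome build, is not given in the sources used here. Samples were grouped by title. The 3 EP300 arrays were compared with the 3 control arrays in limma 3.58.1 (lmFit, eBayes; R 4.3.3), without filter, covariate or block, and p-values were adjusted by Benjamini-Hochberg over all 21448 probe sets (threshold 0.05). The fit was tested on simulated data. Errors of groups are SD over 3 cultures, and errors of differences are limma's moderated SE or 95% intervals. The number of arrays limits the precision.

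The genes, roles and related lists were chosen with earlier results of these data known. Values in every array are given for the 3 genes of each role with the smallest p, the 1 with the highest mean, any other with an unadjusted p below 0.05, and the 2 with the smallest p of 3 related lists. CLDN7 and OCLN were added after their values were seen. Symbols came from the platform annotation, and promoters from RefSeq. Stretches below another listed start were kept to 30 bases. Alternatives were quantile normalization, median centring, a variance trend with robust estimation, a filter for probe sets over the median level, a single probe set for each gene, a replicate block, leaving out each array, and the mean over a gene's probe sets.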

Additional observations from a re-analysis of the deposited data

How the results depend on the processing

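No gene of the 37 was called by limma in any setting, with a lowest adjusted p of 0.534 (with the filter for probe sets over the median level, which leaves 12 of the 37). At an unadjusted p below 0.05, DSG2, TJP1 and MUC1 passed in the same direction in all 12 other settings. JUP lost it without control replicate 2 and without EP300 replicate 3, and DSP without control replicate 3 and without either EP300 replicate 1 or 3. MARVELD2 also passed, as lower, without control replicate 2 and with a variance trend and robust estimation, ST14 without control replicate 2 and DSC2 without EP300 replicate 2. Without single arrays the count of higher genes ran from 2 to 3 and that of lower genes from 1 to 4. The median log2 difference ran from -0.077 to 0.0544 without single arrays, and was 0.174 with that filter, which leaves out the low genes. With a variance trend and robust estimation limma called 4 of 21448 probe sets, 0 of them among the 37, in place of 0. GRHL1 and GRHL2 changed sign without control replicate 2 (-0.00493 and -0.0879, the lowest of ranges up to 0.588 and 0.286), and the other 19 genes named by rule, of 21, kept their direction in all settings tried. Much of this was fixed in advance. Only the normalizations and leaving out an array could change a difference, and the other settings left it as it was. For genes whose groups do not overlap, leaving out 1 array cannot reverse the direction. Over all probe sets, deviations of same-numbered cultures from their group means were nearly uncorrelated (correlations from -0.00893 to -0.00153). The labels do not say whether same-numbered cultures were handled together, and this check cannot settle it. With the replicate block, 0 genes were called (lowest adjusted p 0.806), and 3 were higher and 2 lower at an unadjusted p below 0.05, with MARVELD2 in place of DSP. At the 99th percentile of the olfactory receptors, a setting chosen after seeing the data, 8 genes in place of 12 exceeded the guide in both groups, without CLDN3, CLDN12, OCLN and MUC1. The cause of these changes was not tested.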
